A study of Mus musculus with 3 samples.

Results

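The steroid hormone genes described here are 10 enzymes and carriers that make active steroids or take them out of action: Star, Cyp11a1, Hsd3b6, Hsd3b1, Cyp11b1, Hsd17b1, Srd5a1, Akr1c18, Hsd11b1 and Hsd11b2. They were taken by gene symbol from the 32285 genes of each matrix, and 9 of the 10 passed the low-count filter that left 6666 genes for testing. The tissue was the uterus of female mice on pregnancy day 7.5, kept on normal chow with female littermates to 8 weeks of age and then mated; no treatment or genotype was compared, and all samples form 1 group. Frozen sections were profiled on 10x Visium slides, which capture RNA on a grid of barcoded spots, in 3 libraries: 1 of biological replicates 1 and 2 together, 1 of replicate 3 and 1 of replicate 4. The section of replicates 1 and 2 could not be divided by animal and counted as 1 sample, so the spread given below is between 3 libraries.

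Steroid hormones are made from cholesterol in a chain of enzyme steps. Star carries cholesterol to the inner mitochondrial membrane, Cyp11a1 cuts its side chain to give pregnenolone, and 3-beta-hydroxysteroid dehydrogenases turn pregnenolone into progesterone, the hormone that keeps pregnancy going. In the mouse the ovary supplies most progesterone through pregnancy, while the decidua (the differentiated stroma around the embryo) and the trophoblast giant cells are also known to carry steroid enzymes. Other enzymes end or restore a signal inside the tissue: 5-alpha reductase and 20-alpha-hydroxysteroid dehydrogenase reduce progesterone, Hsd11b2 inactivates corticosterone, and Hsd11b1 regenerates it.

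Of 3978 spots, 3939 had at least 1000 UMIs (unique molecular identifiers, each counting 1 captured RNA molecule) and were kept: 1773 in the library of replicates 1 and 2, 1080 in replicate 3 and 1086 in replicate 4. Median depth was 8038, 26543 and 28286 UMIs per spot in those libraries. The libraries shared 676 to 825 barcodes in pairs, which on Visium slides name grid positions and not cells. A spot covers several cells, so spots were clustered into 12 regions with none of the steroid genes, pathway genes or cell type markers among the clustering genes, and 11 regions with at least 20 spots in at least 2 libraries were tested. In data of this kind fewer cells of a type and less RNA per cell cannot be told apart.

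The regions are named by number and described by leading genes and by marker lists. Region 5 (Fabp4, Psap, Dbi) had the highest level of the decidual list among the tested regions, with 15 of 20 markers higher, and region 2 (Sfrp5, Mt1, Mt4) had 12 of 20 higher. Region 6 (S100a8, Angpt2, Bco1) had 12 of 20 decidual markers and 9 of 10 endothelial markers higher. Region 9 (Prl7a1, Plet1, Pfpl) had 9 of 10 trophoblast, 10 of 10 yolk sac and 8 of 8 epiblast markers higher. Natural killer markers led region 3 (Ptn, Fcer1g, Srgn), with 16 of 17 higher, and were also higher in region 1 (Srgn, Rcn1, Ptn), with 12 of 17. Smooth muscle markers led region 10 (Csrp1, Mylk, Flna), with 12 of 12 higher, followed by region 7 (Csrp1, Flna, Col6a2), with 11 of 12. Region 7 also had 6 of 7 gland markers higher. Region 8 (Bgn, Ctla2a, Spink8) combined 4 of 7 gland markers with 7 of 10 stromal matrix markers, region 4 (Fn1, Ifi27l2a, Col6a2) had 4 of 4 adult globins and 10 of 12 smooth muscle markers higher, and region 11 (Uchl1, S100a8, Hopx) had 9 of 9 simple epithelial and 13 of 17 natural killer markers higher. Region 11, with 5 spots in the joint library of replicates 1 and 2, was tested in replicates 3 and 4 alone. A marker with 0 UMIs in a whole region could not be called lower against an average that includes that region. The marker counts therefore lean toward higher calls. In region 10, for example, 7 of 9 epiblast markers had 0 UMIs in each library.

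The steps of the chain were not all highest in the same region, and several of them were called higher together in region 6. Regions are groups of spots by expression and not by position. The regions with most decidual markers called higher (5, 2 and 6) had the highest levels of Cyp11a1 and Hsd11b1. Region 6 in addition held most UMIs of Hsd3b6, Cyp11b1, Srd5a1 and Akr1c18. Hsd11b2 was highest in regions 8, 7 and 10, and Hsd17b1 in regions 1 and 2. Star had its highest levels in regions 11, 10 and 6.

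In each region the sums of UMIs per library were compared, as log2 values, with the average over the remaining tested regions (edgeR quasi-likelihood test with library as a block). A gene was called when its Benjamini-Hochberg adjusted p over all 6666 genes was under 0.05 and its log2 fold change at least 1 in size. Region 6 had 7 of the 9 tested steroid genes called higher, against 11.9% of all genes, and 1 lower, against 8.75%. Region 5 had 3 higher (12.1% of all genes) and 3 lower (15.9%), and region 2 had 3 higher (6.17%) and 3 lower (8.78%). In region 1, 3 were higher (6.15%) and 1 lower (5.52%). Region 9 had 4 higher (13.8%) and 2 lower (14.9%), and region 11 had 4 higher (11.1%) and 0 lower (3.83%). With all other spots pooled in place of that average, none of the 4 higher calls of region 9 held. The values were -0.27 for Hsd3b6, -0.31 for Cyp11b1, 0.06 for Srd5a1 and 0.07 for Akr1c18. The same change ended the higher calls of Akr1c18 (-0.28) and Cyp11b1 (-0.35) in region 1. It also ended those of Srd5a1 (0.29) and Hsd11b2 (0.31) in region 11.

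Regions 3, 4, 10 and 8 had more lower than higher calls. Region 3 had 7 of 9 lower, against 7.46% of all genes, and 1 higher (9.02%). Region 4 likewise had 7 of 9 lower (6.15%) and 1 higher (13%). In region 10, 4 were lower (10.2%) and 2 higher (14.5%), in region 8, 3 were lower (2.69%) and 1 higher (10.2%), and in region 7, 0 were lower (2.39%) and 1 higher (12.7%). The single gene called higher in regions 3, 4, 7 and 8 was Hsd11b2 in each of them. These shares of all genes are skewed, because 622 of the 6666 genes had 0 UMIs in a whole region and a log average over such a region has no finite value. Set against such averages, those genes gave 1788 higher calls and 0 lower ones. With them left out, region 6 had 10.8% of genes higher and 9.7% lower, region 3 had 7.2% and 8.26%, and region 4 had 10.1% and 6.78%. None of the steroid genes had 0 UMIs in a whole region, and their 30 higher and 31 lower calls summed over regions had the same counts with those genes left out. The region 3 counts depended on the clustering genes. With regions found on the other random set of genes, the lower calls of Hsd3b6 (-0.18), Star (-0.42), Cyp11a1 (-0.63), Srd5a1 (-0.53) and Cyp11b1 (-0.49) were lost. Akr1c18 changed sign (0.63), and Hsd11b2 (0.9997) fell just under the minimum size. Of the region 3 calls, only that of Hsd11b1 held.

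**Figure D1:**
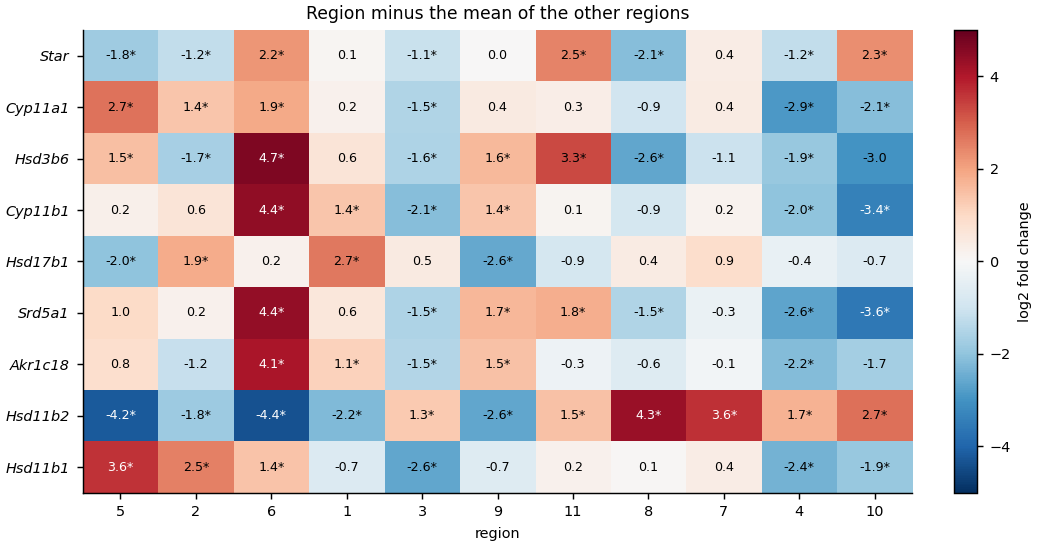
Log2 fold change of each steroid gene (rows) in each region (columns) against the average of the remaining regions, in color and as a number, with an asterisk where the gene was called. Region 6 has 7 genes called higher and 1 lower, Hsd11b2, which is at -4.37 in region 6 and 4.31 in region 8.

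Promoter sequences were available from RefSeq (GRCm38.p6, windows from 250 bases before to 50 after the start) for several of these genes. Those of Hsd3b6, Srd5a1 and Akr1c18 are shown because these genes were highest in region 6 together. That of Hsd3b1 is shown because it encodes the same kind of enzyme as Hsd3b6 and gave no UMI. The bases before the start are printed, at chr3:98814444-98814693 for Hsd3b6, chr3:98859795-98860044 for Hsd3b1, chr13:69611464-69611713 for Srd5a1 and chr13:4150647-4150896 for Akr1c18, each on the minus strand and read toward the gene. Capitals mark AGAACA, the hexamer known from binding sites of the glucocorticoid and progesterone receptors, or its reverse TGTTCT.
Hsd3b6: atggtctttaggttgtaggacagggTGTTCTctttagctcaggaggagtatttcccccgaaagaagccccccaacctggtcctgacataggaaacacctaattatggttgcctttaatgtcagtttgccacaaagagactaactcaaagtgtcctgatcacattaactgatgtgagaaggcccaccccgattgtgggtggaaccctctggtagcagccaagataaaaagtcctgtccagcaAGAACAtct
Hsd3b1: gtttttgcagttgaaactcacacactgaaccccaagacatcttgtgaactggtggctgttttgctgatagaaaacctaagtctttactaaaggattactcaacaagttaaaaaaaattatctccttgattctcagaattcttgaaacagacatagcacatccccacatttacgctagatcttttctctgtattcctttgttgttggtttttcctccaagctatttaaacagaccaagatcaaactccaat
Srd5a1: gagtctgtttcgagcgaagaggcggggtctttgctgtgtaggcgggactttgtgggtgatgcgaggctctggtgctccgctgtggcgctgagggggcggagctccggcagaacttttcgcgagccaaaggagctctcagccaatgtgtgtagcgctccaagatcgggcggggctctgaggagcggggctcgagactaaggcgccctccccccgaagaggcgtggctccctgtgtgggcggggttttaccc
Akr1c18: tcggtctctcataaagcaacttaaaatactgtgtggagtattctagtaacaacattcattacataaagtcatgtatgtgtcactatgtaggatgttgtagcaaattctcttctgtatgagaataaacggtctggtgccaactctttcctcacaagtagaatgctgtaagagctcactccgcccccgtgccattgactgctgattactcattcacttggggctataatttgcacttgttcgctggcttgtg
The Hsd3b6 window holds AGAACA 9 bases before the start and TGTTCT 225 bases before it, and no AGGTCA, a hexamer bound by many nuclear receptors. Akr1c18 has AGGTCA 27 bases after the start, beyond the printed stretch. Neither motif was found in the windows of Hsd3b1 and Srd5a1. Of 32851 RefSeq promoter windows of the same length, 19.0% hold AGAACA and 16.3% AGGTCA on either strand, so such matches are common and describe letters only. The windows of Hsd3b6 and Hsd3b1 are identical at 177 of 247 aligned bases. Star, Cyp11b1, Hsd17b1 and Hsd11b2 have no window in the table used.

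Star (chromosome 8, 25806555 to 25815982, plus strand, GRCm38) is the carrier that brings cholesterol into mitochondria and is rate limiting in the adrenal gland and gonads. Its level was 51.0 and 53.2 CPM (counts scaled to the total UMIs of that region and library) in region 11 of replicates 3 and 4. Region 10 had 42.5, 35.1 and 32.1 CPM in the library of replicates 1 and 2, in replicate 3 and in replicate 4, an order of libraries used throughout. Region 6 had 21.4, 45.0 and 29.9 CPM. Regions 10 and 6 overlapped, and both lay above the 11.6 ± 5.76 CPM (SD, n = 3) of region 7. Region 5, where the decidual markers were highest, had 2.13 ± 0.956 CPM.

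Against the average of the remaining regions Star was higher in region 11 by 2.49 ± 0.31 (log2 fold change ± SE, adjusted p = 1.0e-07), in region 10 by 2.33 ± 0.34 (adjusted p = 1.0e-06) and in region 6 by 2.19 ± 0.19 (adjusted p = 1.1e-11). These 3 calls held under every alternative that gave a value. For region 11, leaving out replicate 3 or 4 gave none. Star was called lower in regions 2, 3, 4, 5 and 8, at -1.11 to -2.14. Those lower calls rest on 7 to 70 UMIs per region and were less stable. The calls in regions 2, 3 and 8 were lost without replicate 4 (-0.85, -0.75 and -1.37), that in region 3 also without the library of replicates 1 and 2 (-0.90), and that in region 4 without replicate 3 (-0.28). With regions found on the other random set of genes, the region 5 value was -0.29. Region 6 held 39.3% of all Star UMIs and 13.6% of all UMIs.

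Cyp11a1 (chromosome 9, 58006411 to 58027023, plus strand) encodes the side-chain cleavage enzyme that commits cholesterol to steroids. It was present at 1206, 1232 and 1229 CPM in region 5, nearly equal between libraries. Region 6 had 1047, 932 and 834 CPM and region 2 had 816, 638 and 599 CPM. These 3 regions did not overlap one another. Regions 9, 11, 1 and 7 followed at 403 to 429 CPM with overlapping ranges, and regions 3, 10 and 4 were lowest, down to 57.7 ± 21.5 CPM in region 4.

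The test called Cyp11a1 higher in region 5 (2.71 ± 0.13, adjusted p = 4.9e-18), region 6 (1.91 ± 0.14, adjusted p = 2.8e-13) and region 2 (1.37 ± 0.15, adjusted p = 3.5e-09). With all other spots pooled in place of the mean of regions, the region 2 difference was 0.63, under the minimum size. It was also under that size without centring by library (0.95), at a clustering resolution of 0.3 (0.86) and with at least 5000 UMIs per spot (0.93). Regions 3, 4 and 10 were called lower, at -1.49, -2.87 and -2.12. The region 3 call was lost with regions found on the other random set of genes (-0.63). Cyp11a1 was the most widespread of the steroid genes by spots: after every spot was thinned to 3000 UMIs, 94.3% to 96.6% of region 5 spots and 87.6% to 94.9% of region 6 spots kept at least 1 UMI, and 8.76% to 24.4% did in region 4. Unthinned, the shares were 99.4% to 100% in region 5, 98.9% to 100% in region 6 and 18.1% to 71.7% in region 4. Across region 5 spots with at least 3000 UMIs the 10th and 90th percentiles were 662 and 1803 CPM in the library of replicates 1 and 2, 846 and 1655 CPM in replicate 3, and 836 and 1671 CPM in replicate 4. The untested region 12 (Htra1, Gm2a, Tnnc1; 18 spots in replicates 1 and 2, 0 in replicate 3 and 26 in replicate 4) had 498 and 676 CPM in the 2 libraries that held it.

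**Figure D2:**
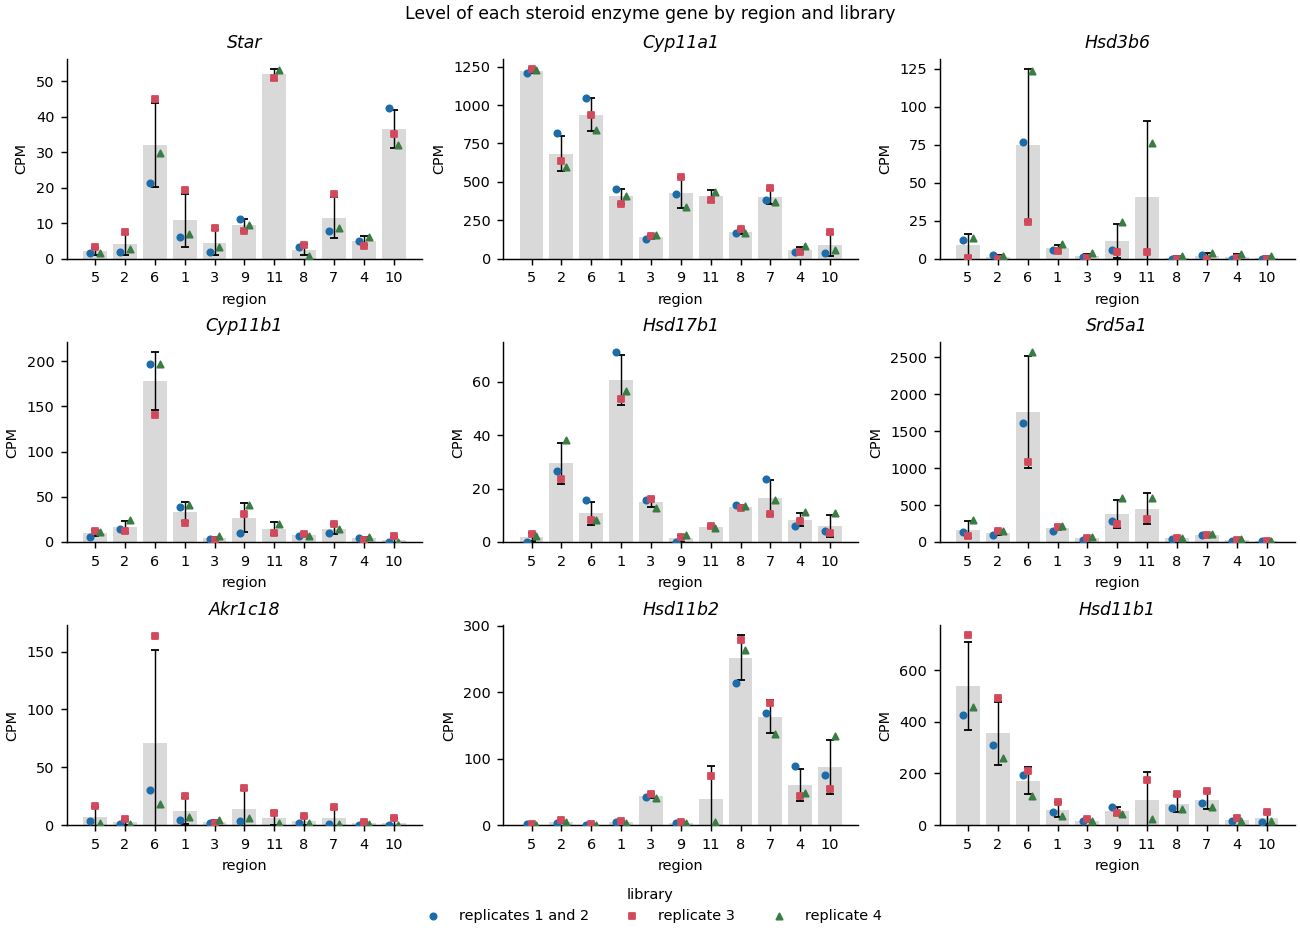
Level of each of the 9 detected steroid genes (y axis, CPM, with its own scale per gene) in the 11 tested regions (x axis, from region 5 with most decidual markers to region 10 with most muscle markers). Bars are means and error bars the SD over libraries (3, or 2 for region 11), and each point is 1 library; Cyp11a1 and Hsd11b1 are highest in region 5, Hsd11b2 in region 8, Hsd17b1 in region 1, Star in region 11 and the other genes in region 6.

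Hsd3b6 and Hsd3b1 lie close together on chromosome 3 (98805504 to 98814443 and 98852194 to 98859794, both on the minus strand). Both encode 3-beta-hydroxysteroid dehydrogenases, which convert pregnenolone to progesterone; in the mouse Hsd3b1 is the form of the gonads and adrenal gland. Hsd3b1 had 0 UMIs in all 3 libraries, and 3 counts, the limit that a count of 0 allows, correspond to 0.178, 0.110 and 0.100 CPM over each library. These limits cover counting error only.

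Hsd3b6 had 76.9, 24.1 and 124 CPM in region 6. Region 11 had 4.74 and 76.2 CPM in replicates 3 and 4, and region 9 had 5.64, 4.28 and 24.5 CPM. The libraries differed by more than the neighbouring regions did, so the ranges of regions 6, 11 and 9 overlapped. With library as a block, Hsd3b6 was higher in region 6 (4.66 ± 0.20, adjusted p = 4.0e-19) and in region 11 (3.29 ± 0.44, adjusted p = 4.0e-07). Both calls held under every alternative that gave a value. Leaving out replicate 3 or 4 gave no value for region 11, where 43 of the 47 Hsd3b6 UMIs tested were in replicate 4. Hsd3b6 was also called higher in region 9 (1.64 ± 0.36) and region 5 (1.52 ± 0.36), but with all other spots pooled these values were -0.27 and -0.32. The lower calls in regions 2, 3, 4 and 8 rest on 17, 18, 9 and 3 UMIs over all libraries. The region 8 call was lost without the library of replicates 1 and 2 (-2.21, adjusted p = 0.093). Without replicate 4, regions 8 and 10 held 0 UMIs of Hsd3b6, so that differences from an average over them had no value.

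Of all Hsd3b6 UMIs, region 6 held 66.7% to 74.2% per library. Within region 6 they were unevenly spread, and the 10% of spots with the highest level held 52.9%, 54.9% and 34.2% of them. The last 500 bases of the Hsd3b6 transcript are 94.1% identical to those of Hsd3b3, and in a 3′-counted library such reads can be hard to place; Hsd3b3 was listed with 1 UMI. Hsd3b2, Hsd3b4 and Hsd3b5 had 1, 0 and 0 UMIs.

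Cyp11b1 (chromosome 15, 74834125 to 74841643, minus strand) encodes 11-beta-hydroxylase, the last step to corticosterone in the adrenal cortex. Region 6 had 197, 140 and 197 CPM. Region 1 was next with 38.5, 21.5 and 40.5 CPM, and region 10 had 0, 6.39 and 0 CPM. Every library of region 6 lay above every library of the other tested regions. The region 6 difference was 4.42 ± 0.14 (adjusted p = 2.0e-22), and region 6 held 61.0% to 68.8% of the Cyp11b1 UMIs of a library.

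Cyp11b1 was also called higher in regions 1 (1.38 ± 0.18) and 9 (1.39 ± 0.24) against the mean of regions. Against all other spots pooled, which include those of region 6, the values were -0.35 (adjusted p = 0.0109) and -0.31, so the direction in those 2 regions depends on the comparison. It was called lower in regions 3, 4 and 10, from 40, 24 and 2 UMIs in all. The region 3 call was lost with regions found on the other random set of genes (-0.49) and the region 10 call without replicate 4 (-2.39, adjusted p = 0.089). Without replicate 3, region 10 held 0 UMIs of Cyp11b1, and the other regions had no value. After thinning, 35.4% to 37.2% of region 6 spots had a Cyp11b1 UMI, against 0% to 4.35% of spots in the muscle region 10; unthinned, the shares were 72.6% to 92.9% and 0% to 8.70%. The gene overlaps Gml2 on the opposite strand, whose level was highest in region 5 (58.4 CPM) and not in region 6 (41.8 CPM); whether the counting used strand is not given in the sources used here.

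The enzymes next to Cyp11b1 in the adrenal chain were scarce. Cyp21a1, which makes its substrate, had 18 UMIs in all, 1 of them in region 6, and Cyp11b2, the aldosterone synthase, had 0.

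Hsd17b1 (chromosome 11, 101078411 to 101080527, plus strand) encodes the enzyme that reduces estrone to estradiol. Region 1 had 71.3, 53.7 and 56.7 CPM and region 2 had 26.6, 23.7 and 38.2 CPM. Region 6 had 15.6, 8.23 and 8.38 CPM, while region 5 had 0, 2.94 and 2.20 CPM. Region 1 lay above region 2, and region 2 above region 7 (16.5 ± 6.57 CPM), without overlap of libraries.

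Region 1 was higher by 2.66 ± 0.15 (adjusted p = 4.1e-15), which held under every alternative that gave a value, and region 2 by 1.86 ± 0.18 (adjusted p = 2.7e-10; 0.80 against all other spots pooled). Regions 5 and 9 were lower at -1.996 ± 0.37 and -2.55 ± 0.45, from 17 and 9 UMIs in all. The region 5 call was lost without centring by library before clustering (-0.78) and with a minimum of 5000 UMIs per spot (-0.92). Region 1 held 49.7% of Hsd17b1 UMIs and 17.8% of all UMIs. Cyp19a1, the aromatase that makes the estrogen substrate of Hsd17b1, had 0 UMIs in every library. Cyp17a1, the enzyme that opens the androgen branch, had 49 UMIs, of which 40 were in region 9 (7, 22 and 11 by library, or 13.2, 18.8 and 4.08 CPM) and 6 in region 6.

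Srd5a1 (chromosome 13, 69573449 to 69611442, minus strand) encodes 5-alpha reductase type 1, which reduces progesterone and testosterone. Region 6 had 1617, 1087 and 2577 CPM. Region 11 had 307 and 597 CPM and region 9 had 282, 249 and 596 CPM, and region 10 was lowest with 8.09, 19.2 and 14.3 CPM. Region 6 stood above all other tested regions in every library. Its difference was 4.39 ± 0.14 (adjusted p = 2.3e-22), and it held 57.3% to 73.2% of Srd5a1 UMIs per library.

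Srd5a1 was also called higher in regions 9 (1.68 ± 0.18) and 11 (1.82 ± 0.22), with 0.06 and 0.29 when all other spots were pooled, and lower in regions 3, 4, 8 and 10. Nearly every region 6 spot had the transcript: 89.3%, 91.2% and 98.0% kept a UMI after thinning, against 2.08% to 4.35% in region 10. Unthinned, the shares were 100% in each library of region 6 and 5.48% to 26.1% in region 10. The spread between region 6 spots of at least 3000 UMIs was wide, with 10th and 90th percentiles of 224 and 3324 CPM in the library of replicates 1 and 2, 433 and 1780 CPM in replicate 3 and 815 and 4148 CPM in replicate 4. Srd5a2 had 1 UMI. The opposite-strand neighbour Nsun2, which overlaps Srd5a1, had 95.7 CPM in region 6, within its range of 34.8 to 170 CPM in the other regions.

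Akr1c18 (chromosome 13, 4132615 to 4150654, minus strand) encodes 20-alpha-hydroxysteroid dehydrogenase, which turns progesterone into a form with little activity and is known from the mouse ovary at the end of pregnancy. In region 6 it had 30.03, 164 and 18.0 CPM. Region 9 had 3.76, 32.5 and 5.93 CPM, region 1 had 4.21, 25.6 and 7.01 CPM, and region 5 had 3.15, 16.7 and 1.57 CPM. Replicate 3 was the highest library in 9 of the 10 regions that all 3 libraries shared. The library ranges of neighbouring regions overlapped, while within each library region 6 was the highest region.

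The blocked test called Akr1c18 higher in region 6 (4.07 ± 0.22, adjusted p = 6.1e-17), a call that held without the library of replicates 1 and 2 and without replicate 4 (3.97 and 4.35). Without replicate 3, region 10 held 0 UMIs of Akr1c18, so that no other region had a value. Smaller higher calls in regions 1 (1.14 ± 0.29) and 9 (1.46 ± 0.39) did not hold with all other spots pooled (-0.28 and 0.07). The lower call in region 3 was lost with DESeq2 (-0.61) and changed sign with regions found on the other random set of genes (0.63). Without the library as a block, the Akr1c18 calls in regions 1, 3, 4 and 9 and the Hsd3b6 calls in regions 2, 3, 4, 5 and 8 were lost. Region 6 held 47.8% to 69.5% of Akr1c18 UMIs. After thinning, 32.7% of region 6 spots in replicate 3 had a UMI, against 6.78% in the library of replicates 1 and 2 and 5.05% in replicate 4. In region 10 the shares were 0%, 4.35% and 0%. Unthinned, region 6 had 25.7%, 86.7% and 30.3%.

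**Figure D3:**
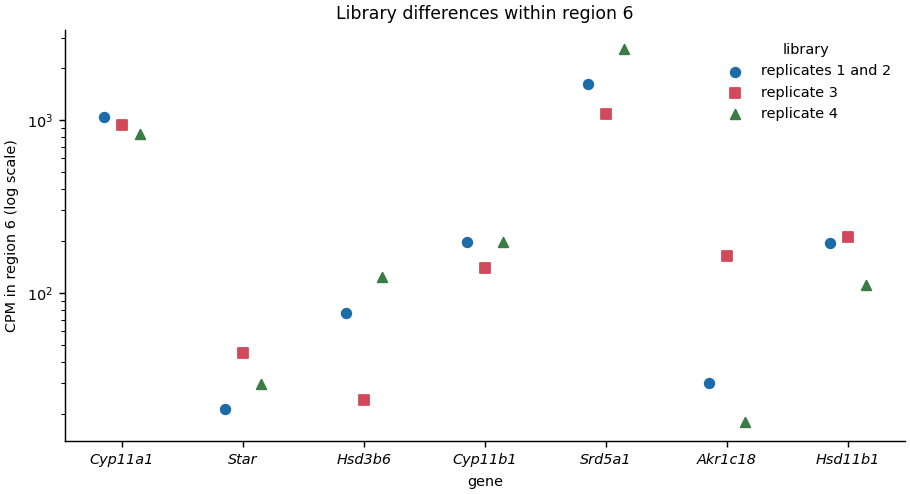
Level (y axis, CPM, log scale) of the 7 steroid genes called higher in region 6 (x axis), with 1 point per library. Cyp11a1 and Cyp11b1 differ least between libraries, whereas Akr1c18 is highest in replicate 3 and Hsd3b6 and Srd5a1 in replicate 4.

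The difference between libraries in region 6 was also seen over whole sections. Akr1c18 had 105, 843 and 157 UMIs, or 6.22, 30.9 and 5.24 CPM, and Hsd3b6 had 252, 123 and 761 UMIs, or 14.9, 4.51 and 25.4 CPM. Replicate 3 was highest for Akr1c18 and lowest for Hsd3b6. Replicate 4 was the highest library for Hsd3b6 and for Srd5a1 in 9 of 10 shared regions each, and replicate 3 for Hsd11b1 in 9 of 10. Natural killer markers in region 6 were also highest in replicate 3, at 56.8, 2191 and 533 CPM summed over 18 genes, with 6, 2 and 3 of them at 0. They were lower in the library of replicates 1 and 2 than in replicate 4, unlike Akr1c18, and their part in the result was not tested. In region 6 the summed decidual list ran the other way, at 45998, 25628 and 31013 CPM, and the endothelial list was at 1545, 2085 and 1800 CPM. There is 1 library per section, so animal, section and library cannot be told apart.

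Trophoblast markers were present in region 6 at 206, 196 and 253 CPM summed over 14 genes (4 or 5 of them at 0 per library), against 3817, 4398 and 3751 CPM in region 9; 5 of the 10 tested were called higher there. Mean levels in regions 6 and 9 were 1761 and 376 CPM for Srd5a1, 178 and 27.0 CPM for Cyp11b1, and 938 and 429 CPM for Cyp11a1. Region 9 also had yolk sac and epiblast markers, so its levels are not those of trophoblast cells alone. The part of trophoblast cells in the region 6 values was not tested. Of 11 genes that mark steroid-producing cells of the ovary and adrenal gland, 3 were tested: Inha (223 UMIs), Cyp17a1 (49) and Akr1b7 (46). Lhcgr had 2 UMIs, Fshr 1, Mc2r 0 and Insl3 0. The list summed to 1.23, 4.995 and 1.44 CPM in region 6. It summed to 13.2, 20.5 and 5.93 CPM in region 9, and to 24.3, 15.97 and 10.7 CPM in region 10. In region 10 minus region 5, 2 of the 3 tested were higher and 0 lower. In regions 9 and 3, each minus region 5, 1 was higher and 0 lower.

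The pair of 11-beta-hydroxysteroid dehydrogenases lay apart. Hsd11b1 (chromosome 1, 193221634 to 193264075, minus strand) acts mainly as a reductase that regenerates corticosterone from its inactive form. It was at 425, 736 and 457 CPM in region 5, at 310, 494 and 261 CPM in region 2 and at 195, 211 and 112 CPM in region 6. Regions 5 and 2 overlapped, and both lay above region 6. Hsd11b1 was called higher in region 5 (3.62 ± 0.12, adjusted p = 1.5e-22), region 2 (2.52 ± 0.13, adjusted p = 5.0e-17) and region 6 (1.43 ± 0.14, adjusted p = 3.0e-10; 0.32 against all other spots pooled). It was lower in regions 3, 4 and 10, at -2.58, -2.35 and -1.91. Regions 5 and 2 gave 37.8% and 30.3% of its UMIs. Region 6 gave 14.3% of them, near its 13.6% of all UMIs.

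Hsd11b2 (chromosome 8, 105518755 to 105523988, plus strand) inactivates corticosterone and is known from the kidney and placenta, where it keeps glucocorticoid away from its receptors. Its level was 214, 278 and 264 CPM in region 8, 169, 185 and 137 CPM in region 7, and 74.9, 54.3 and 134 CPM in region 10. Region 3, of the natural killer markers, had 42.4, 47.1 and 41.5 CPM. Regions 6 and 5 were lowest, with 0.41, 1.76 and 0.48 CPM and 1.05, 1.17 and 0.31 CPM, from 9 and 7 UMIs in all.

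Regions 8 (4.31 ± 0.19, adjusted p = 4.9e-19), 7 (3.64 ± 0.21, adjusted p = 5.3e-16) and 10 (2.75 ± 0.31, adjusted p = 8.5e-09) were higher in Hsd11b2. No library of region 8 overlapped region 7, and none of region 7 overlapped region 10. These 3 calls held under every alternative that gave a value. Regions 4 (1.72), 11 (1.48) and 3 (1.31) were also called higher, with 0.61, 0.31 and 0.27 against all other spots pooled, and in region 11 replicates 3 and 4 had 74.7 and 5.32 CPM. The 5 regions called lower were 6 (-4.37 ± 0.52), 5 (-4.19 ± 0.56), 9 (-2.60 ± 0.53), 1 (-2.20 ± 0.35) and 2 (-1.83 ± 0.37). Clustering at a resolution of 0.3, with fewer and larger regions, ended the calls in regions 6 (-0.23), 9 and 2. The region 2 call was also lost at a resolution of 1.0 (-0.42) and with at least 5000 UMIs per spot (-0.83). Before these changes of setting, Hsd11b2 was called in each of the 11 regions, in 6 higher and in 5 lower.

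Put as a share within each region, Hsd11b1 made up 99.8% to 99.9% of the UMIs of both enzymes in region 5, 99.2% to 99.8% in region 6 and 98.5% to 98.8% in region 2. Regions 1 and 9 followed at 90.9% to 94.3% and 91.8% to 95%. Region 8 had 18.8% to 30.2%, region 3 had 26.0% to 31.8% and region 7 had 33.8% to 42.0%. Region 10 had 9.64% to 48.5%, with exact (Clopper-Pearson) 95% intervals from 4.25% to 18.1% in replicate 4 and from 30.8% to 66.5% in replicate 3, so its libraries differed by more than counting error. Capture can differ between 2 transcripts, so the share shows where the balance shifts and not how much enzyme is present.

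**Figure D4:**
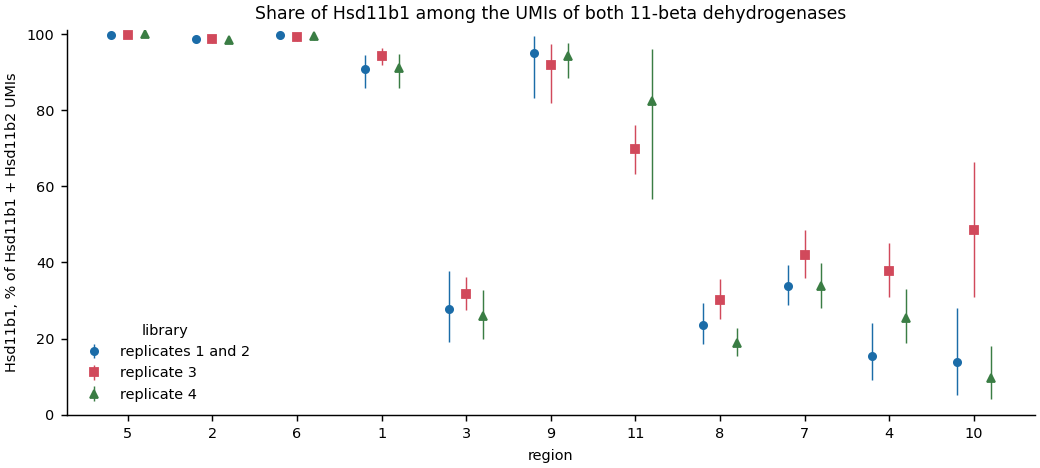
Hsd11b1 UMIs as a percent of the UMIs of Hsd11b1 and Hsd11b2 (y axis) in each tested region (x axis), with 1 point per library and exact 95% binomial intervals for counting error. Regions 5, 2 and 6 are near 100%, regions 1 and 9 above 90%, and regions 3, 8, 7, 4 and 10 below 50% in every library.

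Between pairs of regions, the trophoblast-marker region 9 minus the decidual region 5 gave 2 of 9 steroid genes higher (16.2% of all genes) and 2 lower (15.2%), shares near those of all genes. Star (1.62 ± 0.50, adjusted p = 0.0076) and Cyp11b1 (1.05 ± 0.29, adjusted p = 0.0032) were higher, and Cyp11a1 (-2.07 ± 0.23) and Hsd11b1 (-3.89 ± 0.24) lower. Both higher calls were lost without replicate 4 (1.29 and 0.83), which leaves 2 of 9 called.

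Natural killer region 3 minus region 5 gave 6 of 9 lower (15.8% of all genes) and 2 higher (21.3%). Hsd11b1 (-5.64 ± 0.25) and Cyp11a1 (-3.82 ± 0.25) had the largest lower values, and Hsd11b2 (4.997 ± 0.54) and Hsd17b1 (2.23 ± 0.39) were the 2 higher. The Akr1c18 call of this pair (-2.09) was lost without replicate 3 (-0.03).

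Smooth muscle region 10 minus region 5 gave 5 of 9 lower (18.7% of all genes) and 2 higher (22.1%). Hsd11b2 (6.30 ± 0.57) and Star (3.73 ± 0.48) were higher, and Hsd11b1 (-5.03 ± 0.31), Cyp11a1 (-4.39 ± 0.29) and Srd5a1 (-4.13 ± 0.44) were among the lower. The Hsd3b6 and Cyp11b1 calls, on 1 and 2 UMIs in region 10, were lost without replicate 4. All 3 of these comparisons share region 5.

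**Figure D5:**
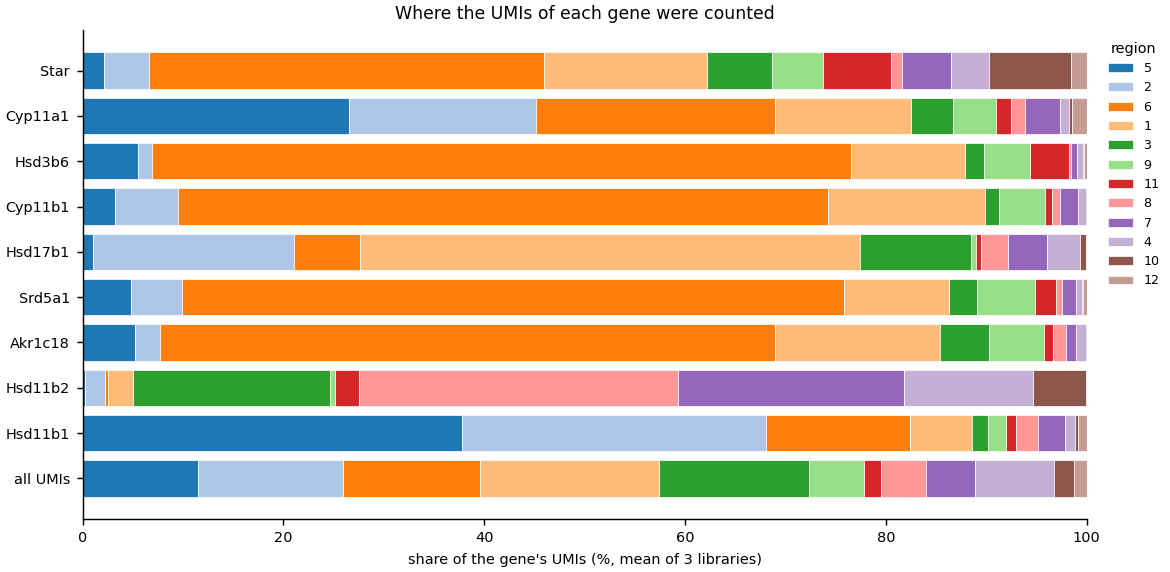
Share of each gene's UMIs (x axis, percent, mean of 3 libraries) counted in each of the 12 regions (colors), with all UMIs as the bottom bar for comparison. Region 6 holds 13.6% of all UMIs and between 39.3% and 69.6% of those of Star, Akr1c18, Cyp11b1, Srd5a1 and Hsd3b6, while Hsd11b2 is spread over regions 8, 7, 3 and 4.

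Single spots could hold several steps of the chain. In thinned spots of region 6, Cyp11a1 and Cyp11b1 were both detected in 33.3%, 31.9% and 34.3% of spots, near the shares with Cyp11b1 at all. Cyp11a1 and Hsd3b6, the step that follows it, were both detected in 10.7%, 7.08% and 23.2%. Across all thinned spots, Spearman's rho of Cyp11a1 with Hsd11b1 was 0.33 to 0.37 by library (1605, 1078 and 1083 spots). Cyp11a1 had 0.27 to 0.32 with Srd5a1, and Cyp11b1 with Srd5a1 had 0.27 to 0.31, whereas Cyp11a1 with Hsd11b2 had -0.23 to -0.11. These values depend on depth: Cyp11a1 with Hsd11b1 had 0.52 to 0.65 unthinned and 0.15 to 0.17 thinned to 1000 UMIs. They describe spots of the same libraries.

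Over the 32 region sums, centred by library, the genes whose log2 level was most like each steroid gene were as follows. For Cyp11a1 they were Slc25a29 (Pearson r = 0.95), Fam129b (0.94) and Sptlc2 (0.94), and for Hsd11b1 they were Npc2 (0.97), Pacs2 (0.95) and Hs1bp3 (0.95). For Srd5a1 they were Il1r2 (0.95), Txn1 (0.95) and Cyb561 (0.93). Txn1 was also most like Cyp11b1 (0.93), ahead of Npb (0.91) and Srd5a1 (0.89). Hsd3b6 was most like 2610528A11Rik (0.93), Srd5a1 (0.91) and Atp6v0c (0.90), and Akr1c18 most like Cyp11b1 (0.87), Jam2 (0.86) and Txn1 (0.84). Hsd11b2 went with Adamts10 (0.95), Rgs3 (0.94) and Col16a1 (0.94), Hsd17b1 with Cxcl14 (0.86), Krt84 (0.82) and Gdpd5 (0.82), and Star with C2cd2l (0.86), Aldoa (0.84) and Rab3ip (0.83). Among the steroid genes themselves the lowest value was that of Hsd11b2 with Srd5a1, at -0.73.

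Genes that bring cholesterol to the enzymes or pass them electrons were measured as a list of 16, all tested. In region 5, 6 were higher (12.1% of all genes) and 1 lower (15.9%). The median log2 fold change there was 0.42, against -0.08 over all genes. Cyb5a, the cytochrome that assists several steroid enzymes (3.19 ± 0.10), and Npc2, which takes cholesterol out of lysosomes (2.57 ± 0.09), were among the higher. In region 6, 2 of 16 were higher, near the share of all genes (11.9%), and 0 lower (8.75%). Among the higher was Cyb5a (1.49 ± 0.12). Tspo, a mitochondrial outer membrane protein, was at 0.89 ± 0.09, under the minimum size. Region 9 had 4 higher (13.8%) and 1 lower (14.9%), led by Npc1 (1.31 ± 0.13) and Soat1 (1.58 ± 0.16). Region 10 had 5 lower (10.2%) and 0 higher (14.5%).

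The other synthesis enzymes were mostly too low to test, with 5 of 14 tested. In region 6, 2 were higher (11.9% of all genes): Hsd3b7, which acts in bile acid synthesis (1.24 ± 0.10), and Cyp17a1, on 6 UMIs. In region 9 the 1 called higher (13.8% of all genes) was Cyp17a1. It had 0 UMIs in 7 regions, so these calls stand against an average with no finite value. The same holds for Akr1c19, Cyp1b1, Cyp7b1, Gata4, Nr2f1 and Sult1e1 on the lists below, 7 of the 63 tested pathway genes, which could not be called lower against such an average. Region 5 had Srd5a3 (1.15 ± 0.13) and Hsd17b7 (1.57 ± 0.22) higher and Hsd3b7 lower (-1.48 ± 0.16), against 12.1% and 15.9% of all genes.

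Enzymes that inactivate or conjugate steroids, other than the 10 genes, were tested for 14 of 24. In region 10, 7 of 14 were higher (14.5% of all genes) and 0 lower, and in region 7, 6 were higher (12.7%) and 0 lower. Regions 4, 6, 8 and 11 had 3 higher each, against 13%, 11.9%, 10.2% and 11.1% of all genes. In region 10 these included Akr1c14, a 3-alpha-hydroxysteroid dehydrogenase (3.84 ± 0.36), and Sult1a1, a sulfotransferase (2.95 ± 0.31). Region 5 had 0 higher (12.1%) and 4 lower (15.9%). Region 6 had 3 higher and 3 lower (8.75%), the lower including Hsd17b10 (-1.58 ± 0.16) and Sult1a1 (-3.69 ± 0.56, on 3, 1 and 2 UMIs by library). In region 9, 2 were higher (13.8%) and 4 lower (14.9%). The higher were Sult1e1, the estrogen sulfotransferase (45.2, 21.4 and 21.1 CPM), and Hsd17b2, which oxidizes estradiol (13.2, 25.7 and 28.9 CPM). Both were also called higher in region 11. There Sult1e1 had 7.11 and 1.77 CPM and Hsd17b2 had 21.3 and 26.6 CPM in replicates 3 and 4. H6pd, the enzyme that supplies Hsd11b1 with its cofactor, was 1 of the 4 lower genes of region 9. It was at 11.03 ± 4.64 CPM in region 9 (-1.98 ± 0.19) and 31.4 ± 4.53 CPM in region 5. Regions 7 and 8, where Hsd11b2 was highest, had more H6pd, at 47.7, 62.4 and 45.6 CPM and at 57.7, 53.9 and 39.4 CPM. Regions 2 and 6 had 29.5, 34.4 and 29.0 CPM and 18.1, 32.3 and 23.5 CPM.

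Of 13 tested regulators of steroid genes, 1 was higher in region 6, Crem, a cAMP-responsive factor (1.96 ± 0.11), and 0 were lower, against 11.9% and 8.75% of all genes. Cebpb, a factor needed for decidualization in the mouse, was the 1 higher in region 5 (1.65 ± 0.11), against 12.1% of all genes. Region 9 had 3 higher (13.8% of all genes) and 4 lower (14.9%). Gata4 (8.43 ± 6.37 CPM, SD, n = 3) was among the higher, and Foxo1 (-2.37 ± 0.24) and Nr2f2 (-1.17 ± 0.15) were among the lower. Nr5a1, the factor that switches on steroid genes in the adrenal gland and gonads, had 1 UMI in all.

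Steroid receptors and their chaperones were tested for 8 of 13. Region 5 had 3 lower (15.9% of all genes), among them Esr1 (-2.01 ± 0.16) and Fkbp4 (-1.27 ± 0.17). It had 1 higher (12.1%), Fkbp5 (1.97 ± 0.13), which is also on the decidual and glucocorticoid lists. In region 9, 4 were lower (14.9%), among them Esr1 (-3.12 ± 0.21) and the progesterone receptor Pgr (-1.81 ± 0.19), and 0 higher (13.8%). Of 9 tested genes of the glucocorticoid response list, 4 were higher and 2 lower in region 5, against 12.1% and 15.9% of all genes. In region 6, 1 was higher and 2 lower, against 11.9% and 8.75%, and in region 8, 2 were higher and 0 lower, against 10.2% and 2.69%. Sgk1, the gene of that list with the highest mean level, was higher in region 5 (2.12 ± 0.08) and region 6 (1.49 ± 0.08) and lower in region 10 (-1.80 ± 0.12).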

How the data were processed

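The deposited matrices hold UMI counts per gene and spot as whole numbers, and per the file headers Space Ranger 1.2.2 wrote them. Cell Ranger and mm10 are the names in the submitters' processing notes, and the annotation version and strand setting are not given there. Total counts were 16915926, 27279702 and 29953072 UMIs in the library of replicates 1 and 2, in replicate 3 and in replicate 4. Spot positions were not used, and doublets were not called because each spot covers several cells.

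The genes, lists and tests were chosen with earlier results of these data known. A minimum of 1000 UMIs removed 38, 1 and 0 spots. Regions were found by Leiden clustering (leidenalg 0.10.2, resolution 0.6) on the 1500 most variable genes of a random set of 16142, which excluded the genes and lists described, after scaling to 10000 UMIs, log transformation and centring by library, with 20 principal components and 15 neighbours. UMIs were summed per library and region, giving 32 sums of 312995 to 6435973 UMIs. Sums were fitted with edgeR 4.0.16 (TMM normalization, library as a block because the regions of a library share it), and p-values were adjusted by Benjamini-Hochberg. The labels call the replicates biological without naming animals. With library as a block, p-values measure how much the differences between regions vary from library to library. They do not measure differences in level between libraries. Contrasts whose average includes a region with 0 UMIs of a gene have no finite log2 value; this rule was set after seeing the data, and such values were left out of the alternatives. The test was tried on simulated counts for region 6 with 6666 genes: 51% of 100 genes changed 2-fold, 93% of 100 changed 4-fold and 0% of 6466 unchanged genes were called; no gene was made absent from a whole region. Thinning to 3000 UMIs left out 168, 2 and 3 spots.

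Named pathway genes are up to 3 of each list with the highest mean level and up to 3 with the smallest p in the contrast described, and the genes most like each steroid gene are the 3 with the highest Pearson r. Near copies, overlapping genes, absent enzymes and ovary or adrenal markers were named after their values were seen. GENCODE M21 (GRCm38) held 32235 of the gene identifiers. Identity of transcript ends came from blastn 2.17.0. Hsd17b8 and Sts, both on the list of inactivating enzymes, were not analysed here. Values of some list genes are not reported here. Alternatives covered normalization, DESeq2 1.42.0, filters, the block, the clustering and each library left out.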

Additional observations from a re-analysis of the deposited data

Results flagged for a closer look

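Signal was also present in the 39 spots left out for holding fewer than 1000 UMIs, of which 38 belonged to the library of replicates 1 and 2. Cyp11a1 had 8 UMIs among the 22186 UMIs of those spots, or 361 CPM, which lies above the 3 counts that a count of 0 allows. Hsd11b1 had 3 UMIs there and Srd5a1 had 1.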

How the results depend on the processing

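Of the 80 called differences of single steroid genes, 40 kept their direction and call under every alternative that gave a value. Over all alternatives, 1066 values kept direction and call, 77 lost the call and 9 changed sign. In region 6, 6 of 8 calls held throughout, while that of Hsd11b1 was lost under 4 alternatives and that of Hsd11b2 under 1. Regions of an alternative clustering were matched by shared spots (Jaccard index of at least 0.3, a value chosen after seeing the data), and unmatched regions gave no value. An average that includes a region with 0 UMIs of the gene gave no value either: this removed values of Akr1c18 without centring, at resolution 1.0, with at least 5000 UMIs and without replicate 3, of Hsd17b1 at resolution 1.0, of Cyp11b1 without replicate 3 and of Hsd3b6 without replicate 4. Leaving out every gene with such a region, an alternative chosen after seeing the data, kept 30 higher and 31 lower calls and gave 146 pathway calls.

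The 30 higher calls summed over regions became 16 with all other spots pooled and 18 at resolution 0.3, and the 31 lower calls became 53 with all other spots pooled. The 161 pathway calls became 357 with no minimum fold change, a looser rule by construction. The 8 calls of region 3 minus region 5 became 5 with the other gene set. The 4 calls of region 9 minus region 5 ranged from 2 to 4 when single libraries were left out. Signs changed with all other spots pooled for Akr1c18 in region 1 (-0.28), Cyp11b1 in regions 1 (-0.35) and 9 (-0.31), and Hsd3b6 in regions 5 (-0.32) and 9 (-0.27). With the other gene set they changed for Akr1c18 in region 3 (0.63) and in region 3 minus region 5 (1.22), and for Cyp11b1 in region 3 minus region 5 (0.51). Star in region 4 changed at resolution 0.3 (0.070). Unless stated, the cause was not tested.

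Without the replicate block, which here is the library, 12 of the 80 calls were lost and none changed sign. Of these, 9 were of Hsd3b6 or Akr1c18 in a region and 3 were between 2 regions, and higher and lower calls numbered 28 and 25. Without replicate 3 or 4, region 11 was not tested. Of the lower calls, those of Star rest on 7 to 70 UMIs per region, and those of Hsd3b6 in regions 2, 3, 4 and 8 on 17, 18, 9 and 3.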
